A study of Mus musculus with 43 samples.

Results

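Potassium channel genes were taken here as all protein-coding mouse genes whose symbol begins with Kcn, with the exception of Kcnj10 and Kcnj16, and their RNA was followed through 4 glial cell types of the mouse cortex. Ensembl identifiers in the count files were matched to symbols with a GRCm39 gene annotation, which gave 92 members among the 55416 genes of each file, and 5 Kcn genes that are not protein-coding were left out. The study asked whether glia differ between mice that lack mature T and B cells and their immunocompetent littermates, and it isolated oligodendrocytes, oligodendrocyte precursor cells (OPCs), astrocytes and microglia from the same brains by immunopanning, in which cells are caught on dishes coated with an antibody to a surface protein. The antibodies were against GalC for oligodendrocytes, PDGFRα for OPCs, HepaCAM for astrocytes and CD45 for microglia. Mice were 3 months old and of both sexes, and littermates were paired under pair numbers 1 to 6, each pair with 1 Rag2-/- mouse (both Rag2 alleles lost) and 1 control. Controls were Rag2+/- in pairs 1, 2, 3 and 5 and Rag2+/+ in pairs 4 and 6. The series holds 43 libraries, which are 4 control and 4 Rag2-/- libraries of oligodendrocytes (pairs 1, 3, 5 and 6), 6 and 5 of OPCs, 6 and 6 of astrocytes, and 6 and 6 of microglia.

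Potassium channels let potassium ions flow down their electrochemical gradient, and in glia they hold the membrane at a negative resting potential, take up potassium released by firing axons and, in microglia, set how motile and responsive the cell is. Most members encode pore-forming subunits. The voltage-gated group holds Kcna to Kcnd, Kcnh, Kcnq and the silent subunits Kcnf, Kcng, Kcns and Kcnv. Further pore-forming groups are calcium- or sodium-activated channels (Kcnma, Kcnn, Kcnt) with the related Kcnu, inward rectifiers (Kcnj) and tandem pore leak channels (Kcnk). The others (Kcnab, Kcne, Kcnip, Kcnmb) encode auxiliary subunits that bind the pore-forming ones and alter their gating or trafficking.

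The pore-forming members share the potassium channel signature, the short stretch of the pore loop that forms the selectivity filter. Coding sequences of GRCm39 were searched for it on the coding strand as 5 successive codons for threonine or serine, any residue, glycine, 1 of tyrosine, phenylalanine or leucine, and glycine. It was present in 75 of the 92 members, against 1169 of 21627 protein-coding genes (5.405%), many of which match these short letters without being channels. It occurred once in 60 members and 2 times in 15, of which 13 are Kcnk genes, whose subunits carry a tandem pair of pore loops, and the others are Kcna6 and Kcnh2. The 17 members without it were all 3 Kcnab, 5 Kcne, 4 Kcnip and 4 Kcnmb genes together with Kcnrg, none of which encodes a pore. The filter codons (in capitals) with 15 coding bases on each side are shown for channels that the comparisons below turn on, in the order oligodendrocytes, OPCs, astrocytes and microglia.
Kcna1, chr6:126619176-126619220, minus strand: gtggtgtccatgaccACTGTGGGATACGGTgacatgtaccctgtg
Kcnma1, chr14:23578466-23578510, minus strand: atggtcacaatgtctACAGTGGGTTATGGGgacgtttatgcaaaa
Kcnd3, chr3, plus strand, split by an intron: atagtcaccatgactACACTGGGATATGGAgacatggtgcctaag
Kcnh8, chr17:53185004-53185048, plus strand: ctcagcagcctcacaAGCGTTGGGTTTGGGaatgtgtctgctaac
Kcnk1, second pore loop, chr8:126752053-126752097, plus strand: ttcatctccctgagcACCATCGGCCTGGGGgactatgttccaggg
Kcnn3, chr3:89552804-89552848, plus strand: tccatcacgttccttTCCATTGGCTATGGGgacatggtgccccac
Kcnk13, second pore loop, chr12:100027620-100027664, plus strand: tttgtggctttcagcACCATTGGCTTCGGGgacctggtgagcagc
Kcnk6, second pore loop, chr7:28924946-28924990, minus strand: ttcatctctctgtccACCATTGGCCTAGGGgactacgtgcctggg
Kcnj2, chr11:110963018-110963062, plus strand: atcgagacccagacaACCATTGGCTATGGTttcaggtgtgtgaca
Kcnn4, chr7:24078608-24078652, plus strand: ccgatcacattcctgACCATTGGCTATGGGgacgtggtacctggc

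Levels are given as CPM (per-million units), the count of a gene scaled to the total of all counts on genes in its library, either as the mean with the SD over libraries or, where a gene is said to run from a value over another to the last, as the lowest, median and highest library. Libraries held 6499417 to 23118497 counts on genes (median 10447042), so that 3 counts, the limit that a count of 0 allows, were worth 0.1298 to 0.462 CPM; this covers counting error only. Each library came from a separate mouse within its cell type. Mitochondrially encoded genes took 45.8 to 60.1% of counts in oligodendrocytes, 22.4 to 36.7% in OPCs, 22.5 to 45.1% in astrocytes and 6.75 to 11.7% in microglia, which lowers the CPM of all other genes in oligodendrocyte libraries. In Rag2-/- libraries Rag2 had 0 counts, against 0 to 4 in controls, and the neighbouring gene Iftap had 0 to 2 counts against 14 to 208. Each library carried the markers of its labelled type, with summed oligodendrocyte markers in astrocyte libraries at 22.4% and astrocyte markers in OPC libraries at 21.5% of the level in their own libraries, and at most 6.68% for the other combinations. Libraries of 1 cell type shared a sequencing lane, so a difference between types cannot be told apart from one between lanes, and neither can fewer cells of a contaminating type from less RNA per such cell.

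The members together took 2255 ± 187 CPM in OPCs (n = 11), 1209 ± 107 in astrocytes (n = 12), 1088 ± 87.3 in oligodendrocytes (n = 8) and 383.7 ± 45.9 in microglia (n = 12). The lowest OPC library (2086 CPM) lay above the highest astrocyte library (1419 CPM) and oligodendrocyte library (1243 CPM), and the highest microglial library reached 454.3 CPM. With the mitochondrial genes left out of the library totals, the order of the middle types changed, with 3142 ± 241.6 in OPCs, 2371 ± 328 in oligodendrocytes, 1851 ± 192.3 in astrocytes and 423.8 ± 52.2 in microglia. A mean of at least 1 CPM was reached by 65 members in OPCs, 60 in oligodendrocytes, 51 in astrocytes and 44 in microglia, and by 73 members in at least 1 of the 4 types.

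The subfamilies that made up these totals differed by type. In OPCs the 4 Kcnip genes, which encode calcium-binding partners of Kcnd channels, held 34.7% of all member counts. In microglia the Kcnk leak channels held 29.6%. In astrocytes the Kcna, Kcnk and Kcnn genes held 19.9, 19.5 and 17.3%, and in oligodendrocytes the Kcna genes held 21.1%. On the scale of CPM per kb of exon, which allows levels to be compared between genes, the highest members were Kcna1 (17.4 ± 4.45) and Kcnip3 (15.7) in oligodendrocytes, Kcnip3 (184.4) and Kcnk1 (23.5) in OPCs, Kcnk1 (72.3) and Kcnip3 (43.4) in astrocytes, and Kcnk13 (11.9) and Kcnk6 (9.58) in microglia.

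To find the members that mark 1 cell type, each type was compared with the other 3 by edgeR's quasi-likelihood test over all 43 libraries, with TMM factors (a scaling that takes most genes as equal between libraries), sex as a covariate and Benjamini-Hochberg adjustment over all 21368 genes tested. A member was called higher in a type when all 3 comparisons were positive with an adjusted p under 0.05. For such calls, the log2 fold change with its SE is the smallest of the 3 unless another is named. The adjusted p beside it is the largest of the 3, which can belong to another comparison. Of the 92 members 78 passed the filter on low counts. Of these, 22 were called higher in oligodendrocytes (28.2%, against 7.5% of all genes tested), 10 in OPCs (12.8% against 5.75%), 6 in astrocytes (7.69% against 8.56%) and 10 in microglia (12.8% against 22.6%). Thus 48 members were highest in 1 type. The share in astrocytes was close to that of all genes, and the share in microglia lay below it.

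**Figure D1:**
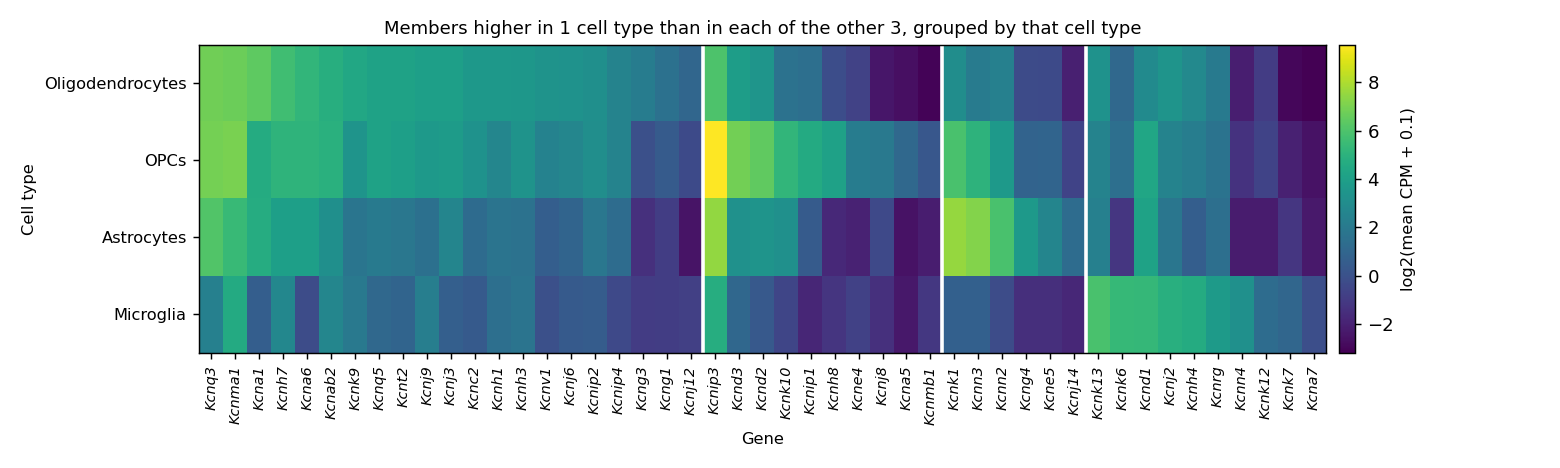
Mean expression of 47 of the 48 members called highest in 1 cell type, as log2(mean CPM + 0.1) in each of the 4 cell types, grouped by the type in which they were called. The colours show plain CPM, so some genes called higher in oligodendrocytes after TMM scaling have a higher mean in plain CPM in OPCs, among them Kcnq3, Kcnma1, Kcnab2 and Kcnip4.

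Among the oligodendrocyte genes, Kcna1, which encodes the voltage-gated subunit Kv1.1, was the clearest. Its CPM ran from 45.9 over a median of 90.2 to 104.4 in the 8 oligodendrocyte libraries, from 17.9 over 25.8 to 33.3 in OPCs, from 11.7 over 24.1 to 42.1 in astrocytes and from 0.308 over 1.12 to 3.91 in microglia. No library of another type reached the lowest oligodendrocyte library. The smallest of its 3 log2 fold changes was 2.31 (SE 0.25, adjusted p = 3.99e-10), over astrocytes, and that over OPCs was 2.73. Kcna6, its neighbour on chromosome 6 (Kv1.6), ran from 22.8 over 36.5 to 52.7 CPM in oligodendrocytes and from 18.5 over 32.2 to 61.4 in OPCs. These ranges overlapped, and the difference of 1.17 in log2 after TMM scaling (SE 0.24, adjusted p = 0.000114) came with scaling factors of 0.526 to 0.730 in oligodendrocytes and 1.12 to 1.47 in OPCs. Of the exon bases of Kcna6, 39.7% lie in exons of an opposite-strand gene (Gm26673), and whether the counting used strand is not given in the sources used here.

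Kcnh7, an ERG-type voltage-gated channel gene, ran from 38.9 over 46.5 to 72.0 CPM in oligodendrocytes and from 22.6 over 34.0 to 51.0 in OPCs, with ranges that overlapped and a log2 fold change of 1.54 (SE 0.19, adjusted p = 9.81e-09). Of its exon bases 18.6% lie in exons of another gene, Gca. Kcnk9, a leak channel of the TASK group, ran from 8.66 over 21.9 to 34.5 in oligodendrocytes and from 3.57 over 7.89 to 30.6 in OPCs, with a log2 fold change of 2.10 (SE 0.35, adjusted p = 4.55e-06). The OPC and oligodendrocyte ranges overlapped, and the ranges in astrocytes (1.55 to 7.05) and microglia (1.49 to 6.25) lay below all oligodendrocyte libraries.

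For the abundant genes Kcnq3 and Kcnma1 the call rested on the scaling. Kcnq3, of the M-current family, ran from 65.4 over 101.5 to 165 CPM in oligodendrocytes and from 81.1 over 105 to 229 in OPCs. Kcnma1, the pore of the large-conductance calcium-activated channel, ran from 66.0 over 98.9 to 177 and from 100.6 over 122 to 146. In plain CPM both had the lower median in oligodendrocytes and overlapping ranges. After TMM scaling their log2 fold changes over OPCs were 0.93 (SE 0.25, adjusted p = 0.00284) and 0.79 (SE 0.14, adjusted p = 2.36e-05), and with library totals alone they turned to -0.10 and -0.28. Kcnab2, which encodes a β subunit of Kv1 channels, behaved likewise, with 0.97 (SE 0.23, adjusted p = 0.000835) after TMM scaling and -0.08 with library totals. With the mitochondrial genes left out of the library totals, mean CPM of Kcnq3 was 238.3 ± 76.28 in oligodendrocytes and 166.8 ± 64.05 in OPCs. In the same order it was 227.1 ± 90.95 and 173.9 ± 17.77 for Kcnma1, and 62.16 ± 27.19 and 42.05 ± 10.13 for Kcnab2. In the fit with these totals, chosen after seeing the data, Kcnma1 and Kcnab2 were called higher in oligodendrocytes and Kcnq3 was not. The part of the mitochondrial share in the change of sign was not tested.

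The neuron markers in the oligodendrocyte libraries also differed between litters. The summed CPM of all 8 neuron markers was 410.8 to 736.7 in the libraries of pairs 1 and 3 and 1189 to 1690 in those of pairs 5 and 6, against 432.3 to 800.6 in OPCs, 130.5 to 294.8 in astrocytes and 58.2 to 139.4 in microglia, and none of the 8 was at 0 in all libraries of a type. Other marker sums separated the same litters, with mural markers at 7.45 to 15.5 CPM in pairs 1 and 3 and 30.4 to 91.5 in pairs 5 and 6, and border macrophage and monocyte markers at 50.7 to 99.9 and 4.01 to 21.7 CPM. Kcnj3, which encodes an inward rectifier opened by G proteins and was chosen after its values were seen, measured 5.65 to 13.7 CPM in pairs 1 and 3 and 19.2 to 24.7 in pairs 5 and 6. Kcnk9 measured 8.66 to 20.96 and 22.8 to 34.5. Kcnh7 measured 38.9 to 47.9 and 45.1 to 72.0, and Kcnma1 66.0 to 105.6 and 89.0 to 177, both with overlap. Kcna1 went the other way, with 86.0 to 104.4 in pairs 1 and 3 and 45.9 to 94.5 in pairs 5 and 6, and Kcna6 with 35.2 to 52.7 and 22.8 to 39.4. Of the 22 members called higher in oligodendrocytes, 8 had a Pearson correlation above 0.5 with the neuron sum over the 8 libraries. It was under -0.5 for 2, Kcna1 and Kcna6. With the oligodendrocyte libraries of pairs 1 and 3 alone, an alternative chosen after seeing the data, 9 members were called higher in oligodendrocytes (5.31% of all genes), 7 of them among the 22: Kcna1, Kcna6, Kcnh7, Kcnip4, Kcnj12, Kcnk9 and Kcnma1. The part of neuronal, mural or macrophage RNA in the calls was not tested.

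**Figure D2:**
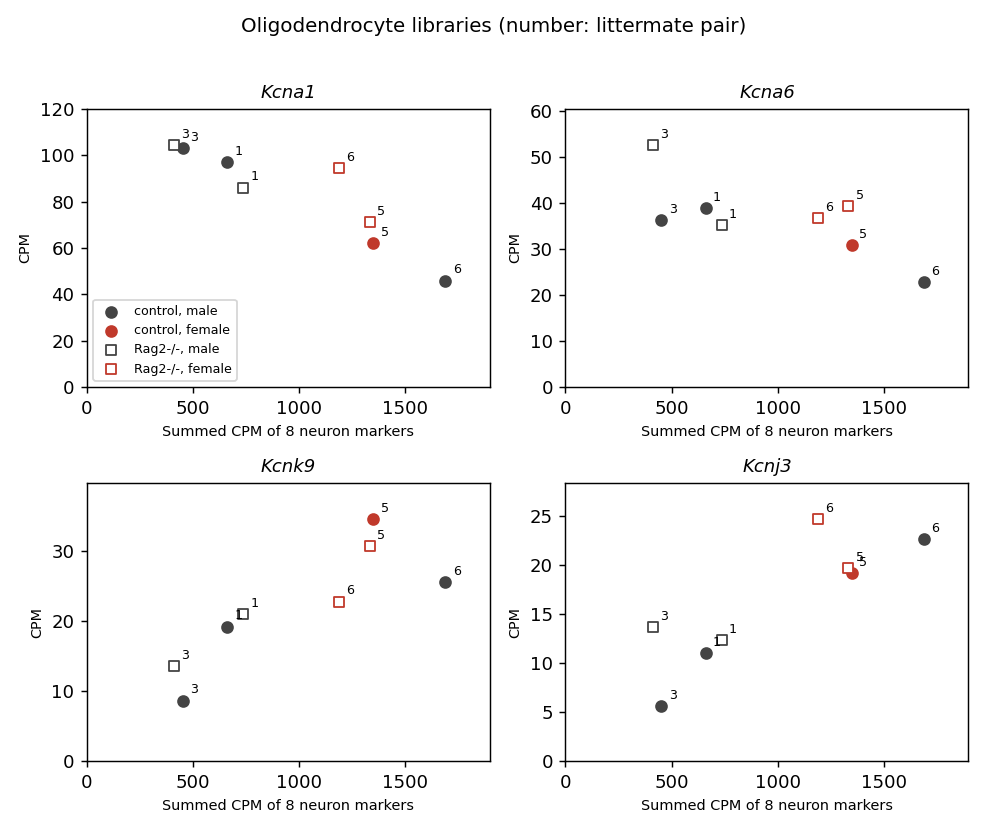
CPM of Kcna1, Kcna6, Kcnk9 and Kcnj3 (vertical axes) against the summed CPM of 8 neuron marker genes (horizontal axis) in the 8 oligodendrocyte libraries, with numbers for the littermate pair, colour for sex and marker shape for genotype. Pairs 5 and 6 lie to the right, at 1189 to 1690 CPM of neuron markers, with Kcnk9 and Kcnj3 above every library of pairs 1 and 3.

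The other oligodendrocyte calls were lower in level. They comprised the G protein-gated rectifiers Kcnj3, Kcnj6 and Kcnj9, the rectifier Kcnj12, the EAG- and ELK-type genes Kcnh1 and Kcnh3, the M-current gene Kcnq5, the sodium-activated channel gene Kcnt2, the fast delayed rectifier Kcnc2, the silent subunits Kcng1, Kcng3 and Kcnv1, and the Kcnd partners Kcnip2 and Kcnip4. Their means ran from 1.91 CPM (Kcnj12) to 17.9 CPM (Kcnq5). Kcna1, Kcnh7 and Kcnk9 were called in this fit and in each of 7 other settings that were compared gene by gene. These were DESeq2, each genotype alone, library totals with and without mitochondrial genes, pairs 1 and 3 only, and the mouse as a block. Other scalings, filters and left-out litters were not part of this comparison. With library totals alone, only 4 of the 22 were called (2.42% of all genes): Kcna1, Kcnh1, Kcnh7 and Kcnk9. In that setting the log2 fold change over OPCs was -0.016 for Kcnq5, 0.10 for Kcnt2 and 0.14 for Kcna6. After TMM scaling it was 1.05, 1.17 and 1.17 for these 3 genes.

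In OPCs the members called highest included Kcnip3, Kcnip1, Kcnd3 and Kcnd2, while Kcnip2 and Kcnip4 were called in oligodendrocytes and Kcnd1 in microglia. The calls of Kcnip2 and Kcnip4 rested on the scaling. Their means were 8.92 and 5.62 CPM in oligodendrocytes and 8.42 and 5.69 CPM in OPCs. Their log2 fold changes over OPCs were 1.115 and 1.095 after TMM scaling, and 0.09 and 0.03 with library totals alone. Kcnip3, whose product (KChIP3, also called calsenilin or DREAM) binds Kcnd channels and also acts in the nucleus, ran from 540 over 710 to 1071 CPM in OPCs, from 100.1 over 178 to 242 in astrocytes, from 50.5 over 64.4 to 73.4 in oligodendrocytes and from 9.12 over 24.7 to 53.7 in microglia. The 4 ranges were separate except that the highest microglial library overlapped the oligodendrocyte range. The smallest log2 fold change was 1.71 (SE 0.19, adjusted p = 3.67e-10), over astrocytes.

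Kcnd3 (Kv4.3) and Kcnd2 (Kv4.2), the pore-forming subunits that Kcnip proteins bind, were likewise called highest in OPCs. Kcnd3 ran from 85.6 over 108 to 166 CPM in OPCs and stayed at or under 22.7 in every other library, and Kcnd2 ran from 67.8 over 83.6 to 125 and stayed at or under 18.7. Neither range overlapped with that of another type. Their smallest log2 fold changes, both over oligodendrocytes, were 1.93 (SE 0.31, adjusted p = 2.73e-06) and 1.95 (SE 0.27, adjusted p = 1.89e-07). Dpp6, which encodes the other class of Kcnd partner and was on a list of 16 non-Kcn partner genes, was also called highest in OPCs, with 280.8 CPM and a log2 fold change of 1.92 (adjusted p = 2.21e-07). Dpp10, of the same class and list, had 62.3 CPM in OPCs and 22.7 CPM in oligodendrocytes and was called highest in no type. Kcnip1, a further partner, ran from 12.99 over 23.5 to 34.3 CPM in OPCs and reached 7.79 elsewhere, with a log2 fold change of 2.10 (SE 0.50, adjusted p = 0.000827).

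Kcnh8, an ELK-type voltage-gated channel gene, ran from 10.4 over 17.2 to 31.5 CPM in OPCs against medians of 0.344 in oligodendrocytes, 0.136 in astrocytes and 0 in microglia. Its highest value outside OPCs was 2.13 CPM, and the smallest log2 fold change was 3.87 (SE 0.70, adjusted p = 2.20e-05). Kcnk10, a leak channel gene of the TREK group, ran from 18.1 over 32.3 to 70.5 CPM, above the highest astrocyte library (16.3), with a log2 fold change of 1.60 (SE 0.40, adjusted p = 0.00121).

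Of the lower OPC calls, Kcnj8 (Kir6.1) is known as the pore of the potassium channel of pericytes that is closed by ATP. In the 11 OPC libraries it ran from 0.628 over 3.42 to 8.47 CPM, overlapping the astrocyte range of 0 to 2.42, with a log2 fold change of 2.12 (SE 0.73, adjusted p = 0.0163). Kcne4, an auxiliary subunit, had a mean of 4.43 CPM (log2 fold change 2.48, SE 0.97, adjusted p = 0.0394), and Abcc9, the regulatory partner of Kcnj8, 12.3 CPM (log2 fold change 2.38, adjusted p = 3.34e-05). Mural cell markers, 6 genes of pericytes and smooth muscle of which none was at 0 in all OPC libraries, summed to 105.3 to 653.8 CPM in OPCs, against 7.45 to 91.5 in oligodendrocytes, 74.3 to 158.4 in astrocytes and 22.3 to 64.4 in microglia. Most of the astrocyte sum was Pdgfrb, with a mean of 88.7 CPM against 23.8 in OPCs, and the rest of the list had lower means in astrocytes than in OPCs. In the OPC library with the highest sum (Rag2-/- of pair 1) Kcne4 measured 10.7, Kcnj8 6.57 and Abcc9 24.1 CPM, and in the OPC library with the lowest sum (control of pair 4) 1.79, 0.695 and 4.07 CPM. Kcnj8 did not follow the sum in each library, with 7.96 CPM at a mural sum of 162.1 CPM (control of pair 1) and 3.25 CPM at 367.2 CPM (Rag2-/- of pair 2). Kcnip3 measured 539.8 CPM in the library with the highest and 808.1 CPM in that with the lowest mural sum. The part of mural RNA in the calls of Kcnj8 and Kcne4 was not tested. Kcna5 and Kcnmb1, at 2.07 and 1.12 CPM, completed the OPC calls. The call of Kcnmb1 was close to the threshold (log2 fold change 1.66, SE 0.75, adjusted p = 0.0484). Called in this fit and in the same 7 other settings were Kcnip3, Kcnd2, Kcnd3, Kcnip1 and Kcnh8. With either genotype alone neither Kcna5 nor Kcnmb1 was called, and Kcnmb1 was not called with DESeq2.

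**Figure D3:**
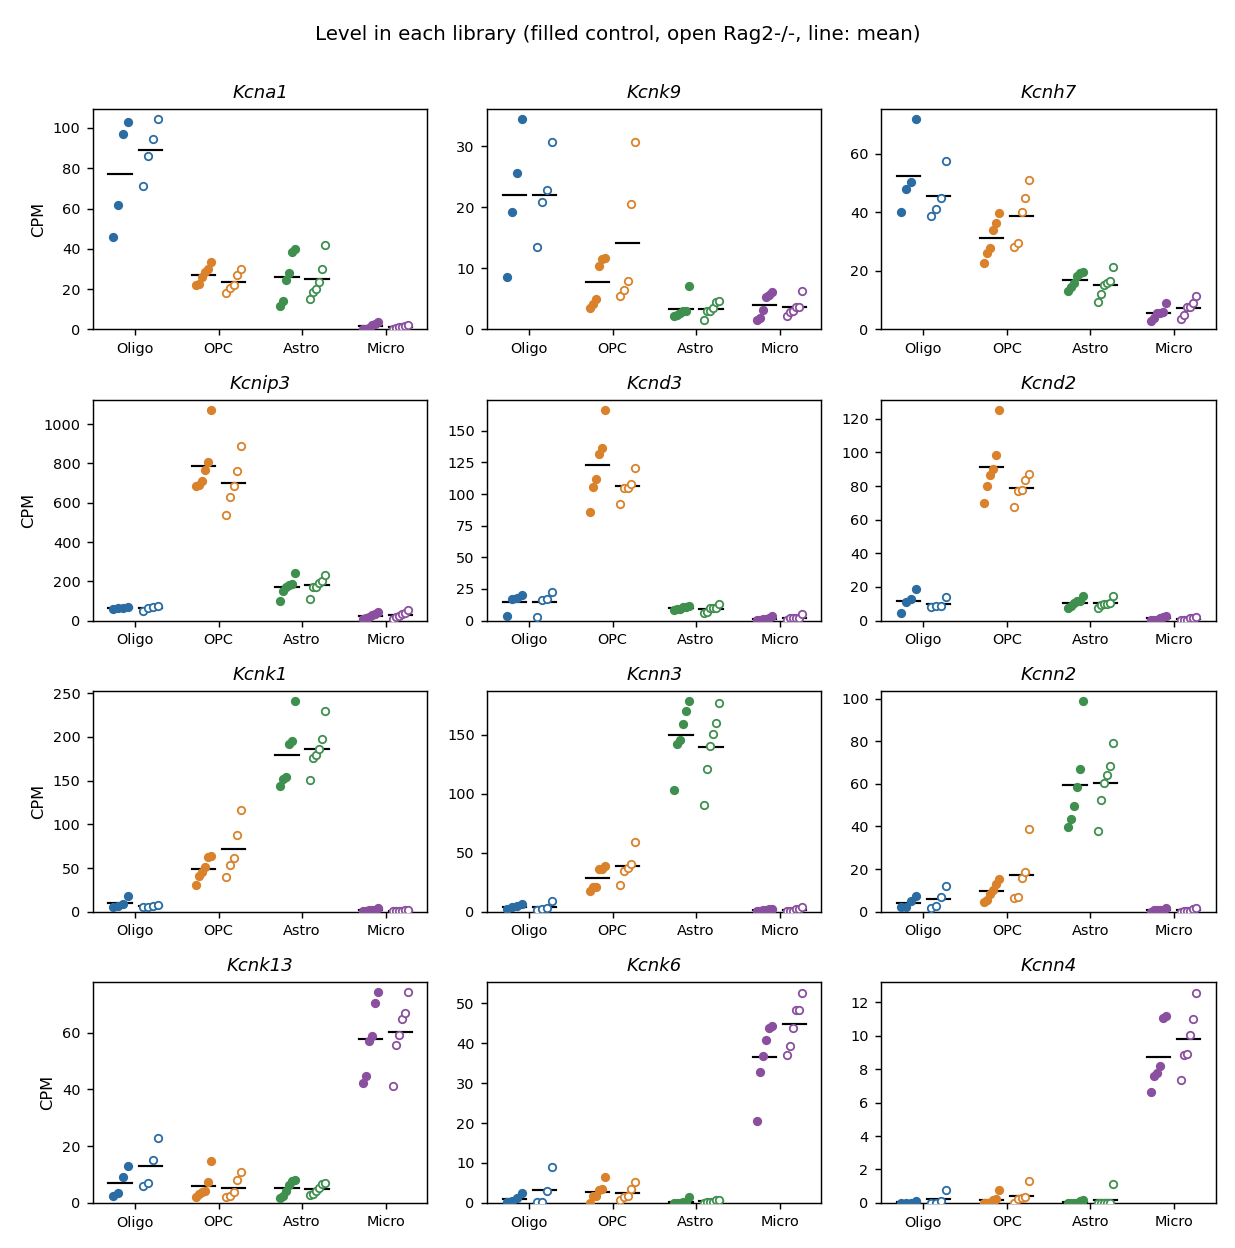
CPM in every library for 12 members, in the 4 cell types, with filled points for controls, open points for Rag2-/- and a line at the mean of each genotype within a cell type. Kcnip3, Kcnd3 and Kcnd2 are separate in OPCs, Kcnk1 and Kcnn3 in astrocytes, and Kcnk13, Kcnk6 and Kcnn4 in microglia, while filled and open points mix within each type.

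In astrocytes the leading member was Kcnk1 (TWIK-1), a weak leak channel of the tandem pore group. It ran from 143 over 183 to 241 CPM, against 30.5 over 53.5 to 117 in OPCs, 5.00 over 6.64 to 18.2 in oligodendrocytes and 0.279 over 1.33 to 3.87 in microglia. The astrocyte range was separate from the others, and the log2 fold change over OPCs was 2.01 (SE 0.22, adjusted p = 5.74e-10). Kcnn3 (SK3), a small-conductance calcium-activated channel gene, ran from 90.5 over 148 to 178 CPM, against at most 59.3 in OPCs, with a log2 fold change of 2.51 (SE 0.27, adjusted p = 2.77e-10). Kcnn2 (SK2) ran from 37.8 over 59.5 to 98.7 CPM, and the highest OPC library, at 38.6, was the only other library to reach this range, with a log2 fold change of 2.69 (SE 0.33, adjusted p = 1.76e-08). Astrocyte markers stood at 21.5% of their own level in the OPC libraries, the type nearest to astrocytes for all 3 genes.

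The 3 remaining astrocyte calls were the silent subunit gene Kcng4 (12.3 CPM, log2 fold change 3.20, SE 0.68, adjusted p = 0.000749), the auxiliary subunit gene Kcne5 (5.97 CPM, 2.22, SE 0.74, adjusted p = 0.0146) and the inward rectifier gene Kcnj14 (2.42 CPM, 2.67, SE 0.66, adjusted p = 0.000992). Of these 6, all but Kcne5 were called in the same 7 other settings. Outside the Kcn genes, the channel partners Lgi1 (78.7 CPM), Adam23 (129.7 CPM) and Amigo1 (46.0 CPM) of the partner list were highest in astrocytes, with log2 fold changes of 1.70, 0.77 and 1.31.

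In microglia the leak channel genes Kcnk13 (THIK-1) and Kcnk6 (TWIK-2), the former known for setting the microglial resting potential and surveillance, led the list. Kcnk13 ran from 41.3 over 59.0 to 74.2 CPM, against at most 22.99 in oligodendrocytes, 14.6 in OPCs and 8.16 in astrocytes, with a smallest log2 fold change of 1.72 (SE 0.35, adjusted p = 3.44e-05). Kcnk6 ran from 20.5 over 42.3 to 52.7 CPM, against at most 9.11 elsewhere, with 3.57 (SE 0.59, adjusted p = 1.2e-06). Kcnn4, which encodes the intermediate-conductance calcium-activated channel KCa3.1, ran from 6.62 over 8.86 to 12.6 CPM, against at most 1.28 elsewhere, with 5.02 (SE 0.69, adjusted p = 2.64e-07). For these 3 genes no other library reached the microglial range, and they were the microglial genes called in the same 7 other settings.

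The other microglial calls were closer to other types. Kcnd1 (Kv4.1) ran from 24.6 over 36.9 to 63.2 CPM, against up to 31.2 in OPCs (log2 fold change over astrocytes 0.94, SE 0.28, adjusted p = 0.00329). Kcnj2 (Kir2.1), the strong inward rectifier, ran from 17.5 over 27.1 to 44.7 CPM, against up to 24.9 in oligodendrocytes (0.66, SE 0.27, adjusted p = 0.0300). Kcnh4, an ELK-type gene, ran from 15.3 over 26.0 to 31.8 CPM, above the highest library of another type at 13.04 (0.95, SE 0.38, adjusted p = 0.0245). Kcnrg, a regulator that is no pore, had 13.6 CPM (1.08, adjusted p = 0.0125), with 25.6% of its exon bases in exons of Dleu2. Kcnk12, Kcnk7 and Kcna7 had means of 2.41, 1.90 and 0.814 CPM. Markers of border macrophages and monocytes, which CD45 also catches, summed to 350.1 to 754.2 CPM in the microglial libraries and at most 99.9 in the others, with none of the 5 at 0 in all microglial libraries, and their part in these values was not tested.

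More members were lowest in microglia than highest there. By the same test 39 of the 78 members were lower in microglia than in each of the other 3 types (50%, against 23.7% of all genes tested). Kcna2 (Kv1.2), for example, ran from 4.33 over 5.79 to 9.6 CPM in microglia, from 78.2 over 103.6 to 139 in oligodendrocytes, from 83.0 over 109 to 149 in OPCs and from 150 over 195 to 243 in astrocytes. Astrocytes lay above both oligodendrocyte-lineage types, and the latter overlapped. After TMM scaling OPCs were lower than astrocytes by a log2 difference of -1.21 (adjusted p = 2.44e-11), whereas oligodendrocytes and astrocytes differed by -0.26, which missed the threshold (adjusted p = 0.0825). Kcnk2 (TREK-1), of whose exon bases 14.6% lie in exons of other genes, ran from 25.9 over 33.2 to 52.5 CPM in OPCs and from 18.8 over 30.004 to 41.7 in astrocytes, which did not pass the test (log2 difference -0.14, adjusted p = 0.684), but only from 2.45 over 5.10 to 16.3 in oligodendrocytes and from 0.093 over 0.507 to 1.71 in microglia. Kcna3 (Kv1.3), known in activated microglia and chosen after its values were seen, had 4.72 ± 2.59 CPM in OPCs, 1.79 ± 1.07 in microglia, 1.71 ± 1.47 in oligodendrocytes and 0.487 ± 0.334 in astrocytes and was called highest in none.

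Since OPCs give rise to oligodendrocytes, this pair of types was also compared directly. By edgeR's quasi-likelihood test 28 members were higher in oligodendrocytes than in OPCs (35.9%, against 15.7% of all genes) and 13 were lower (16.7%, against 25%). The genes called lower include Kcnip3, Kcnd2, Kcnd3, Kcnip1, Kcnk10 and Kcnh8, and those called higher include Kcna1, Kcnk9 and Kcnh7. This split depended on the scaling. The median log2 fold change was 0.41 over the members and -0.24 over all genes with TMM, with 68.3% of called members higher. With library totals alone it was -0.61 and -1.25, with 5 members higher, 29 lower and 14.7% of the calls higher. With totals that leave out the mitochondrial genes, a setting chosen after seeing the data, it was 0.03 and -0.64, with 18 higher, 19 lower and 48.6% of the calls higher. With DESeq2's size factors 31 were higher and 13 lower. The distance between the median of the members and that of all genes was 0.65, 0.64, 0.67 and 0.67 in these 4 settings.

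**Figure D4:**
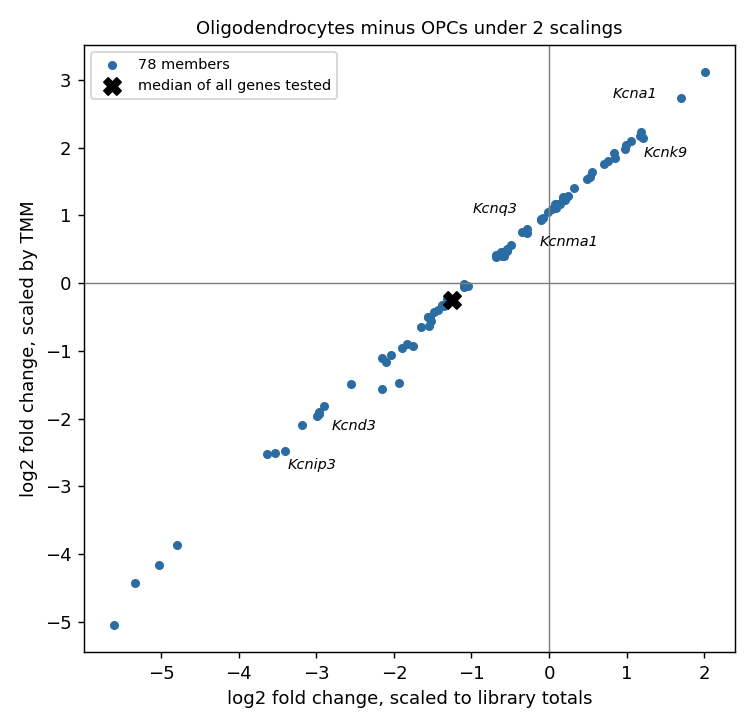
Log2 fold change of each of the 78 tested members in oligodendrocytes over OPCs, with TMM scaling on the vertical axis and library totals alone on the horizontal axis, and a cross at the median of all genes. The points lie along a line shifted upward from equality, so that Kcna1 is positive and Kcnip3 negative on both axes while Kcnma1 changes sign.

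The 16 non-Kcn partner genes, whose products anchor, traffic or gate these channels, were tested in the same fit. Cntn2 (227 CPM, log2 fold change 1.92, adjusted p = 4.22e-07) and Cntnap2 (17.97 CPM, adjusted p = 0.000241), which hold Kv1 channels beside the node of Ranvier, were highest in oligodendrocytes together with Abcc8 (5.51 CPM, 2.54). Abcc9 and Dpp6 were highest in OPCs, Lgi1, Adam23 and Amigo1 in astrocytes, and none in microglia, while 6 tested partners were highest in no type and Lrrc26 and Lrrc52 were not tested.

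Members that lie side by side in the genome did not share 1 pattern. On chromosome 6 Kcna5 (chr6:126509514-126512375), Kcna1 (chr6:126617360-126623347) and Kcna6 (chr6:126685292-126717644) follow each other with 105 and 61.9 kb between them, and Kcna1 and Kcna6 were called highest in oligodendrocytes but Kcna5 in OPCs. On chromosome 3 Kcna3, Kcna2 and Kcna10 lie 62.9 and 68.1 kb apart, with the values of Kcna3 and Kcna2 given above and Kcna10 too low to test. Kcnmb1 (chr11:33890243-33923641) lies within the span of Kcnip1 (chr11:33576285-33943152), and both were called highest in OPCs, Kcnmb1 close to the threshold and at a mean of 1.12 CPM.

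Loss of Rag2 was tested in each cell type with sex as a covariate, as in the study. After Benjamini-Hochberg adjustment of edgeR's quasi-likelihood test no member was called, of 65 tested in OPCs (against 0.00592% of all genes), 60 in oligodendrocytes (0.0%), 48 in astrocytes (0.00679%) and 41 in microglia (0.00667%). DESeq2 called none either, against 0.0239, 0.75, 0.003 and 0.00916% of all genes in these types. At an unadjusted p under 0.05 there were 9, 3, 4 and 2 members, which is 13.8, 5, 8.33 and 4.88%, against 4.02, 3.38, 2.87 and 2.90% of all genes, in the same order of types. The smallest adjusted p of a member was 0.9998, 0.9979, 0.9998 and 0.9993. The median SE of a member's log2 fold change was 0.30, 0.68, 0.33 and 0.43. A call after adjustment needs a difference of several such errors, so differences well above the SE could also be missed at this depth and number of libraries.

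Kcnj6 (GIRK2) had the smallest unadjusted p among the members in OPCs (log2 fold change 1.32, SE 0.36). It measured 6.99, 7.31, 8.92, 10.1 and 11.9 CPM in the 5 Rag2-/- libraries and 1.69, 1.99, 3.41, 4.31, 5.23 and 5.85 in the 6 controls, and all Rag2-/- libraries lay above all controls. Its exons overlap those of other genes over 12.5% of their bases. Kcna6 followed (log2 fold change -0.51), with 18.5, 25.2, 29.5, 30.9 and 32.2 CPM in Rag2-/- and 31.0, 33.5, 33.8, 41.4, 41.6 and 61.4 CPM in controls, where the ranges overlapped between 31.0 and 32.2 CPM. Neither passed the adjusted threshold. Mural markers summed to 140.9 to 653.8 CPM in Rag2-/- and 105.3 to 366.3 CPM in control OPCs, and astrocyte markers to 2479 to 6937 and 2621 to 3211 CPM, and their part in these differences was not tested.

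In the other types the smallest unadjusted p values belonged to Kcng3 (log2 fold change -2.83) and Kcnc4 (-1.71) in oligodendrocytes, Kcnh3 (1.04) and Kcnc4 (0.57) in astrocytes, and Kcnk6 (0.32, SE 0.14) and Kcnq5 (-0.93) in microglia. Kcng3 in oligodendrocytes measured 0.659, 1.82, 4.35 and 20.4 CPM in controls, the last in pair 5, and 0, 0.603, 2.72 and 4.09 CPM in Rag2-/-. The ranges overlapped. Kcnk6 in microglia measured 37.1, 39.3, 43.8, 48.2, 48.4 and 52.7 CPM in Rag2-/- and 20.5, 32.8, 36.7, 40.8, 43.8 and 44.4 CPM in controls, which overlapped. The genotype effect itself was then compared between the cell types by the interaction term of the joint fit. It was called for 0 of 78 members (0.248% of all genes), with 13 members (16.7%) against 2392 of all genes (11.2%) at an unadjusted p under 0.05 and a smallest adjusted p of 0.22.

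Females and males were compared in the same fits. No member was called by sex in oligodendrocytes (against 0.0362% of all genes), OPCs (0.0296%), astrocytes (0.0407%) or microglia (0.0467%) by edgeR, while DESeq2 called 4 of 79 in oligodendrocytes (Kcnc1, Kcnc2, Kcng3 and Kcnj6), against 1.78% of all genes, and none in OPCs (0.0659%), astrocytes (0.098%) or microglia (0.0629%). At an unadjusted p under 0.05 there were 10 of 60 members in oligodendrocytes (16.7%, against 8.23% of all genes). There were 3 in astrocytes (6.25% against 6.73%), 1 in OPCs (1.54% against 4.3%) and 0 in microglia (against 3.92%), where the shares lay below those of all genes. Of the 10, 8 were higher in females: Kcnc1, Kcnc2, Kcng3, Kcnh7, Kcnj6, Kcnj9, Kcnk9 and Kcns2. Kcnc2 (Kv3.2) measured 17.6, 19.1 and 24.7 CPM in the 3 female libraries and 5.77 to 8.85 in the 5 male ones, with no overlap. Kcnj6 measured 38.5, 8.46 and 11.2 CPM in females and 1.88 to 8.62 in males, which overlapped, and its highest value was again the control of pair 5. The 3 female oligodendrocyte libraries were both of pair 5 and the Rag2-/- library of pair 6, which are among the libraries with neuron markers at 1189 to 1690 CPM, and no male library came from pair 5. The part of litter and of neuronal RNA in the sex differences was not tested.

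**Figure D5:**
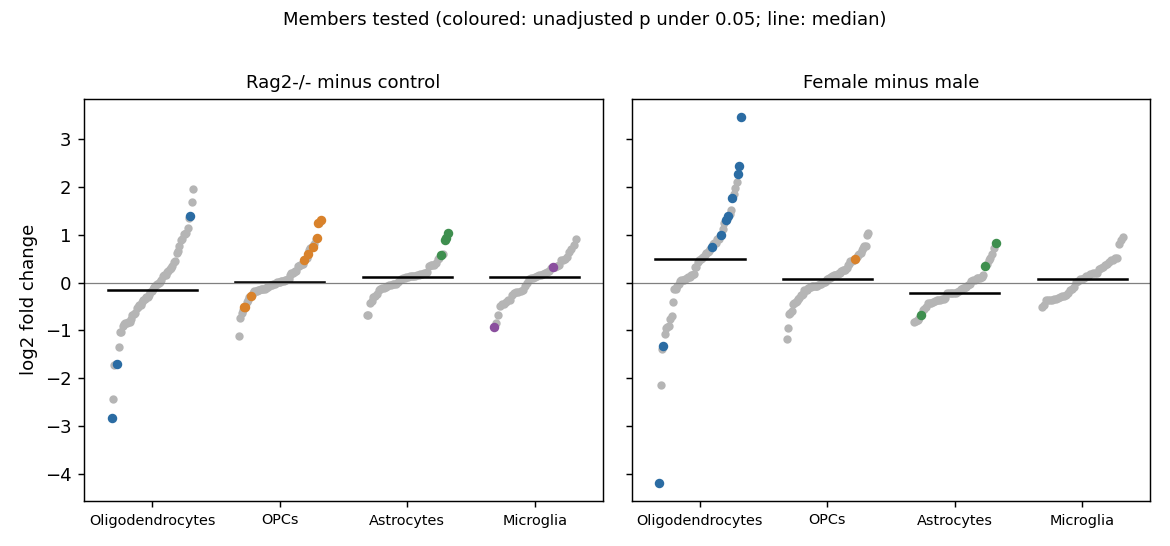
Log2 fold change of each tested member by genotype (Rag2-/- over control) and by sex (female over male) in the 4 cell types, with members at an unadjusted p under 0.05 coloured and a line at the median of the members. In oligodendrocytes the median by sex is 0.49, with 45 of 60 members above 0, and by genotype -0.17.

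There were 14 members that were not tested across cell types because their counts were low: Kcna10, Kcne1, Kcne2, Kcne3, Kcng2, Kcnj1, Kcnj5, Kcnj15, Kcnk15, Kcnk16, Kcnk18, Kcnmb3, Kcnq1 and Kcnv2. None had a mean above 0.480 CPM in a cell type, 7 had at most 3 counts in every library, and Kcnk15 and Kcnk16 had 0 counts throughout. Of these, Kcne1 and Kcnq1 encode the cardiac slow delayed rectifier and Kcnj1 the rectifier of the kidney tubule. A further 30 members were tested and were highest in no cell type, 15 of them called lower in microglia than in each other type.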

How the data were processed

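RNA of immunopanned cells was amplified and sequenced as read pairs of 50 bases. The authors aligned reads with STAR 2.7.8a to GRCm39, per the labels, and deposited whole-number counts per Ensembl gene for each library. Whether counting used strand is not given in the sources used here. Between 33.5 and 52.0% of each library's counts stood on rows that name no gene, which were left out. Symbols came from a GRCm39 annotation that held 54749 of 55416 identifiers (667 did not match). The members, gene lists and tests were chosen with earlier results of these data known.

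Counts were tested with edgeR 4.0.16 (quasi-likelihood, TMM, filterByExpr with min.count 10 and min.total.count 15, Benjamini-Hochberg over all genes tested) in R 4.3.3, in 1 joint fit of 43 libraries over the 8 groups and sex, with cell types averaged over genotypes, and in 1 fit per cell type with genotype and sex. The scripts were tested on simulated data. CPM was computed in Python 3.11.15 from library totals without TMM factors. DESeq2 1.42.0, the study's tool, other scalings and filters, single genotypes, a littermate or mouse block, and leaving out libraries or litters were alternatives, and 2 more were added after seeing the data. The labels give littermates 1 pair number, which pairs the samples. Deviations from group means correlated at 0.043 to 0.152 within pairs in oligodendrocytes, -0.009 to 0.168 in OPCs, 0.016 to 0.130 in astrocytes and 0.027 to 0.062 in microglia. No 2 libraries of a group agreed within sampling noise.

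Genes named with values were, for each type, the 8 of highest CPM among those called highest there and the 8 of highest CPM per kb, those called by genotype, sex or interaction with the 2 of smallest unadjusted p per comparison, and the 5 largest rises and falls from OPCs to oligodendrocytes. One named gene is not reported here. Others are said to be chosen after their values were seen.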

Additional observations from a re-analysis of the deposited data

Results flagged for a closer look

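In groups of 4 to 6 libraries, a value was singled out when its gap to the nearest other library was large against the range of its group by Dixon's 95% limit, which chance passes in about 1 of 20 groups. Among 106 groups of the named genes 4 values did so. In OPC controls the library of pair 5 measured 61.4 CPM for Kcna6 (the others 31.0 to 41.6) and 1070 CPM for Kcnip3 (the others 687 to 808). In Rag2-/- microglia the library of pair 2 measured 3.55 CPM for Kcnk12 (the others 1.65 to 2.29), and that of pair 5 measured 8.41 CPM for Kcnrg (the others 13.4 to 16.3).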

How the results depend on the processing

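The counts of members called depended on scaling and samples chiefly where oligodendrocytes were involved. The 22 members higher in oligodendrocytes (7.5% of all genes) became 14 with Rag2-/- libraries only (4.95% of all genes), 13 with control libraries only (5.27%), 4 with library totals alone (2.42%), 13 with totals without mitochondrial genes (5.46%) and 9 with the oligodendrocytes of pairs 1 and 3 only (5.31%), the last of these and the totals without mitochondrial genes being settings chosen after seeing the data. The 10 higher in OPCs (5.75%) became 6 with Rag2-/- libraries only (2.62%) and 19 with library totals alone (14.6%), and the 10 higher in microglia (22.6%) 5 with Rag2-/- (18.5%) and 6 with control libraries only (19.2%). The 28 higher in oligodendrocytes than in OPCs (15.7%) became 18 with controls only (12.4%), 5 with library totals alone (4.63%), 18 with totals without mitochondrial genes (9.9%) and 14 with pairs 1 and 3 only (12.4%), and the 13 lower (25%) became 29 with library totals alone (63.9%). The share of all genes called moved in the same direction in each of these settings. Library totals alone also turned the sign for some genes, among them Kcnq3 (-0.10), Kcnma1 (-0.28), Kcnab2 (-0.0811) and Kcnq5 (-0.016). The cause was not tested. For sex in oligodendrocytes, 0 members became 4 with DESeq2 on all genes (1.78%), 3 with DESeq2 on the filtered genes (1.06%) and 1 with no filter (0.337%), and for the interaction 0 became 6 with no filter (2.57%, Kcna5, Kcne4, Kcne5, Kcnip1, Kcnk1 and Kcnk10).

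Leaving out 1 library or litter in turn gave 16 to 24 members higher in oligodendrocytes, 7 to 10 in OPCs, 6 to 7 in astrocytes, 8 to 10 in microglia, 33 to 40 lower in microglia, 21 to 30 higher and 12 to 16 lower in oligodendrocytes than in OPCs, and 0 by genotype or sex. With the mouse as a replicate block the counts were 19, 9, 6, 8, 37, 25 and 14, and with the littermate pair as a replicate block 0 members were called by genotype, sex or interaction. Littermates differed in sex only in pair 6, with a male control and a female Rag2-/- mouse. With the pair block the sex effect therefore rested on that pair alone. Its 0 calls and its signs by sex cannot decide whether a sex difference holds. The pair block turned the sign of the sex difference, which passed no threshold, for Kcna2 in OPCs (-0.11), Kcnma1 in microglia (-0.12) and Kcnrg in microglia (0.20), and no block moved a count by over 1.5 times. Depth limits the members under about 1 CPM.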
